A study of Bos taurus and Felis catus with 14 samples.

Results

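The mir-29 family was found at 10 of the 1305 microRNA precursors predicted in cow and cat, 5 in each species. Members were taken by name: every predicted hairpin called mir-29, with any letter or copy number and with or without the suffix that marks a locus not matched to an annotated one (as in mir-29-Novel2), and without names that mark an antisense hairpin (none of these carried mir-29 in either set). Small RNA was sequenced from 10 bovine tissues of 3 Angus steers, of which 8 tissues came from 1 animal (iris, retina and optic nerve of the eye, oral papillae and dental pulp of the mouth, and penis, submandibular lymph node and bone marrow), brain stem from another and corium, the tissue beneath the hoof, from the third. The 4 cat libraries, 2 of skin and 2 of muscle, came from 3 neutered male domestic short hair cats. All 3 cats were aged 10 years or more, and 1 of them gave both tissues. The sample labels name no treatment, and the paper calls the cat tissues normal and the bovine ones collected just after slaughter. Within a species the libraries were merged into 1 list of predictions. A difference between cow and cat therefore cannot be told apart from the difference in tissues and in the number of libraries. The lists hold positions and names but no read counts, and the level of mir-29 in a tissue and the sequencing depth behind a locus were not analysed here.

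A microRNA starts as a hairpin within a longer transcript. Drosha cuts the hairpin free in the nucleus, Dicer removes its loop in the cytoplasm, and the duplex that is left has a product from the 5′ arm (5p) and one from the 3′ arm (3p), either of which can be loaded into an Argonaute protein to repress messenger RNAs. The mir-29 products that are best known come from the 3p arm and share a seed, the stretch near the 5′ end that chooses targets. They are known to repress collagens and other extracellular matrix genes, which has tied the family to fibrosis in skin and muscle, and the DNA methyltransferases DNMT3A and DNMT3B. In mammals the family is known from genes that lie in pairs, each with a mir-29b copy beside mir-29a or mir-29c, and each pair is transcribed as 1 primary RNA.

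In both lists the predicted members formed a pair on one chromosome, a pair on another, and 1 further copy beyond the second pair. Whether the further copies of cow and cat are counterparts was not tested. In cow, mir-29b-1 lay at chr4:95402682-95402787 and mir-29a at chr4:95402310-95402393, both on the minus strand. The other bovine pair was mir-29b-2 at chr16:77478018-77478128 with mir-29c at chr16:77478582-77478691, both on the plus strand. The fifth bovine member, mir-29e, lay farther along the plus strand at chr16:77562003-77562075. Coordinates are those of the prediction lists; the sources used here name no genome build for them.

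In cat, mir-29a was predicted at 146007938 to 146008039 on the minus strand of the sequence NC_018724.2, and its partner at 146008307 to 146008378 of the same strand. That partner has no letter in its name, only the suffix without a number, and is called here the feline partner of mir-29a. The second cat pair, mir-29b-2 at 35514543 to 35514651 and mir-29-Novel3 at 35515140 to 35515200, was on the plus strand of NC_018739.2. The remaining copy, mir-29-Novel2, lay at 35576986 to 35577097 on that strand. So 2 of the 5 cat members carried a name without the suffix, against 5 of 5 in cow. For its list of clusters, the paper took miRBase as the annotated set in cow, but the predictions of Laganà et al. in cat. The suffixes may thus rest on unlike sets, and the contrast is not read as a difference between the species. The suffix stood on the partner of mir-29a, the partner of mir-29b-2 and the distant copy.

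Of all precursors, mir-29 made up 0.617% in cow (5 of 810, exact Clopper-Pearson 95% interval 0.201 to 1.43%) and 1.01% in cat (5 of 495, 0.329 to 2.34%). These intervals overlap and cover counting error only. They treat the members as independent, although most lie in pairs, and their overlap is no test between the species. The family held the same number of members in both lists although the cow list was the longer. In cow, 5 of 303 numbered families had more members than mir-29, and in cat 4 of 208.

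Pairs were read as mir-29 precursors with at most 10 kb between their spans. By this measure 4 of 5 members in cow and 4 of 5 in cat had a mir-29 neighbour. A neighbour of any family lay as close for 29.0% of all bovine and 33.3% of all feline precursors, and a neighbour of its own family for 9.36% and 12.6% of those with a family number. The members were thus paired more often than the lists as a whole, though 5 loci a species are few and no test was made. Families of 1 member cannot pair, and only 67 of 303 bovine and 47 of 208 feline families had 2 or more. Nor was pairing particular to mir-29. Same-strand neighbour pairs within 10 kb numbered 2 among 5 members of mir-29 and 3 among 6 of mir-181 in each species. The mir-30 family had 2 among 6 in cow and 2 among 7 in cat, and let-7 had 3 among 11 in each. No precursor of another family lay within 10 kb of any mir-29 member, so each pair held mir-29 alone.

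The gap between the spans of mir-29b-1 and mir-29a was 288 nt in cow, and that between mir-29a and its partner was 267 nt in cat. The gap from mir-29b-2 to its partner was wider in both species, at 453 nt to mir-29c in cow and 488 nt to mir-29-Novel3 in cat. Gaps of the same pair therefore differed by 21 and by 35 nt between species, less than the 2 pairs of a species differed from each other. Read along the transcribed strand, the member with mir-29b in its name came first in all 3 pairs that have one. In the cat pair without such a name, the suffixed partner came first and mir-29a second, the place that mir-29b-1 and mir-29a hold in cow.

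Because the ends of a predicted hairpin can be set differently from locus to locus, the distance was also taken between the first bases of the 5p products. It was 386 nt from mir-29b-1 to mir-29a in cow and 357 nt from the partner to mir-29a in cat, a difference of 29 nt. From mir-29b-2 to its partner it was 565 nt in cow and 573 nt in cat, a difference of 8 nt. The mir-29b-2 pair thus differed less between species by its products than by its spans, and the mir-29a pair slightly more.

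**Figure D1:**
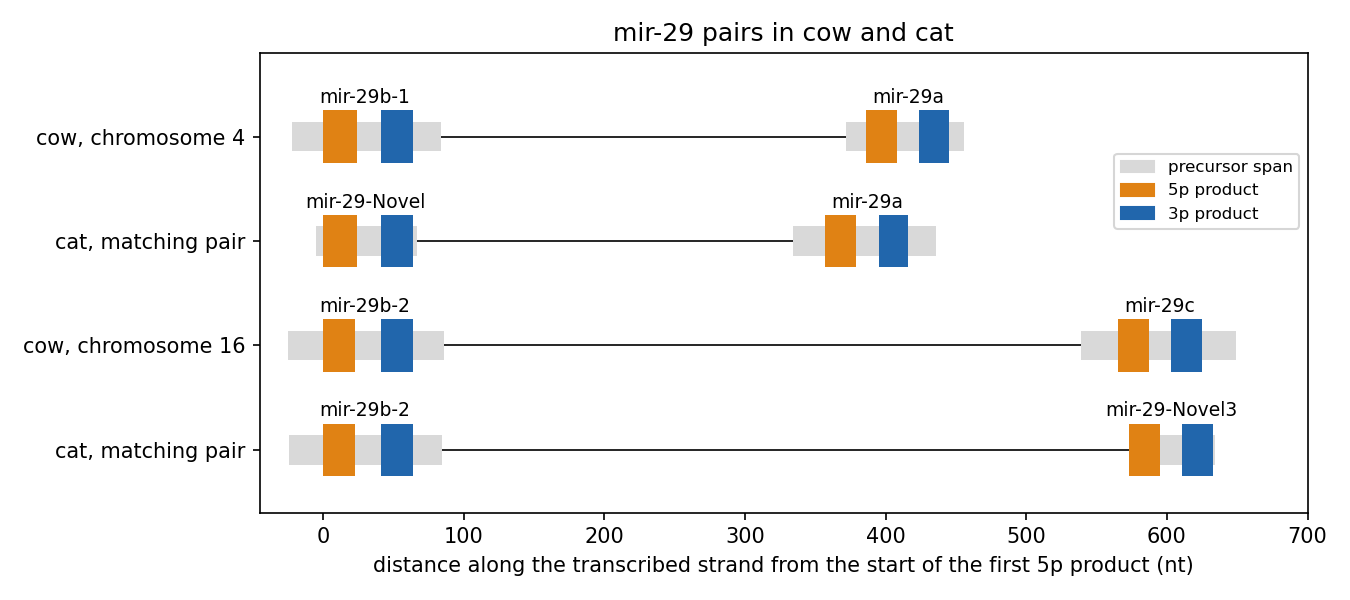
The 4 mir-29 pairs to scale, with distance in nt along the transcribed strand from the first base of the leading 5p product on the x axis and 1 pair a row; grey boxes are precursor spans, orange boxes 5p products and blue boxes 3p products. In the upper pairs mir-29a starts 386 nt along in cow and 357 nt in cat, and in the lower pairs the member after mir-29b-2 starts 565 and 573 nt along.

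The distant copy stood well outside the pairs. In cow, mir-29e began 83311 nt after the end of mir-29c, and in cat mir-29-Novel2 began 61785 nt after the end of mir-29-Novel3. In both species no other predicted precursor lay between the pair and this copy, and the copy was on the strand of the pair. It had no predicted partner in either species.

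Other families with several members differed in their spacing. Neighbours of the let-7 family on the same strand and within 10 kb (3 in each species) had median gaps of 728 nt in cow and 831 nt in cat. Those of mir-30 (2 in each species) were farther apart, with medians of 3717 and 3691 nt, and those of mir-181 (3 in each) mostly closer, with medians of 119 and 120 nt. Over all families the medians were 381.5 nt in cow (26 neighbours) and 488 nt in cat (17 neighbours). The mir-29 gaps, from 267 to 488 nt, were near these medians.

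All 10 mir-29 precursors had a product from each arm. Both arms were present at 72.5% of all bovine precursors and 65.7% of all feline ones, and at every let-7 and mir-181 precursor and all mir-30 precursors but 1 in cat, so this was common among families of this kind. The 3p product was listed before the 5p product at all 10 mir-29 precursors. Among precursors with both arms this order was found at 49.2% in cow and 44.0% in cat. The members of let-7, mir-30 and mir-181 that had both arms listed the 5p product first without exception. What sets the order within a record is not stated, and it was not read as abundance.

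The 5p products of mir-29 were 22 to 24 nt long and the 3p products 21 to 23 nt. In mir-29a, the 5p product measured 22 nt and the 3p product 21 nt, with 16 nt between them, in cow and in cat alike. In mir-29b-2 the values were 23, 18 and 23 nt in both species. The bovine mir-29b-1 had a 5p product of 24 nt, then 17 nt, then a 3p product of 23 nt, and the feline partner of mir-29a, which holds its place, had these same values. Bovine mir-29c and feline mir-29-Novel3, second in the mir-29b-2 pair, both had 22, 16 and 22 nt. The layout, meaning these 3 lengths together, was therefore identical in 4 of 4 matched members, 2 matched by name and 2 by order in the pair. No sequence was compared in making the match by order.

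Of the 141 names that had both arms in both species, mir-29a and mir-29b-2 included, 53.2% (75) had the same layout in cow and cat. An identical layout was thus frequent, and the 2 of 2 mir-29 members matched by name are read against that share. The share does not cover matches by order in the pair. For let-7 it was 4 of 6 names, for mir-30 1 of 1 and for mir-181 1 of 6.

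The layouts of the mir-29b copies were rare in the lists. Values of 23, 18 and 23 nt occurred at 2 of 587 bovine precursors with both arms, mir-29b-2 and mir-29e, and at 1 of 325 feline ones, mir-29b-2. Values of 24, 17 and 23 nt occurred once in each species, at mir-29b-1 in cow and at the partner of mir-29a in cat. The layout of mir-29a was shared by 9 bovine (1.53%) and 6 feline (1.85%) precursors, and that of mir-29c, with 22, 16 and 22 nt, by 27 (4.60%) and 13 (4.0%). The layouts of mir-29a and mir-29c are thus no mark of the family. How rare an exact layout is in general was not counted, so the rarer ones are not read as a mark either.

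The distant copies did not share a layout. Bovine mir-29e had that of mir-29b-2, with 23, 18 and 23 nt, whereas feline mir-29-Novel2 had that of mir-29c, with 22, 16 and 22 nt. Only their place beyond the mir-29b-2 pair sets them side by side. RefSeq's list of bovine genes (assembly ARS-UCD2.0, used for names and order only) has 6 mir-29 genes, the 5 predicted here and MIR29D, which follows MIR29E directly. No precursor was predicted under that name, and the next predicted precursor downstream of mir-29e was mir-181b-1, 2.12 Mb away. Position therefore does not tell whether mir-29-Novel2 is the counterpart of mir-29e or of MIR29D, and no sequence was compared.

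**Figure D2:**
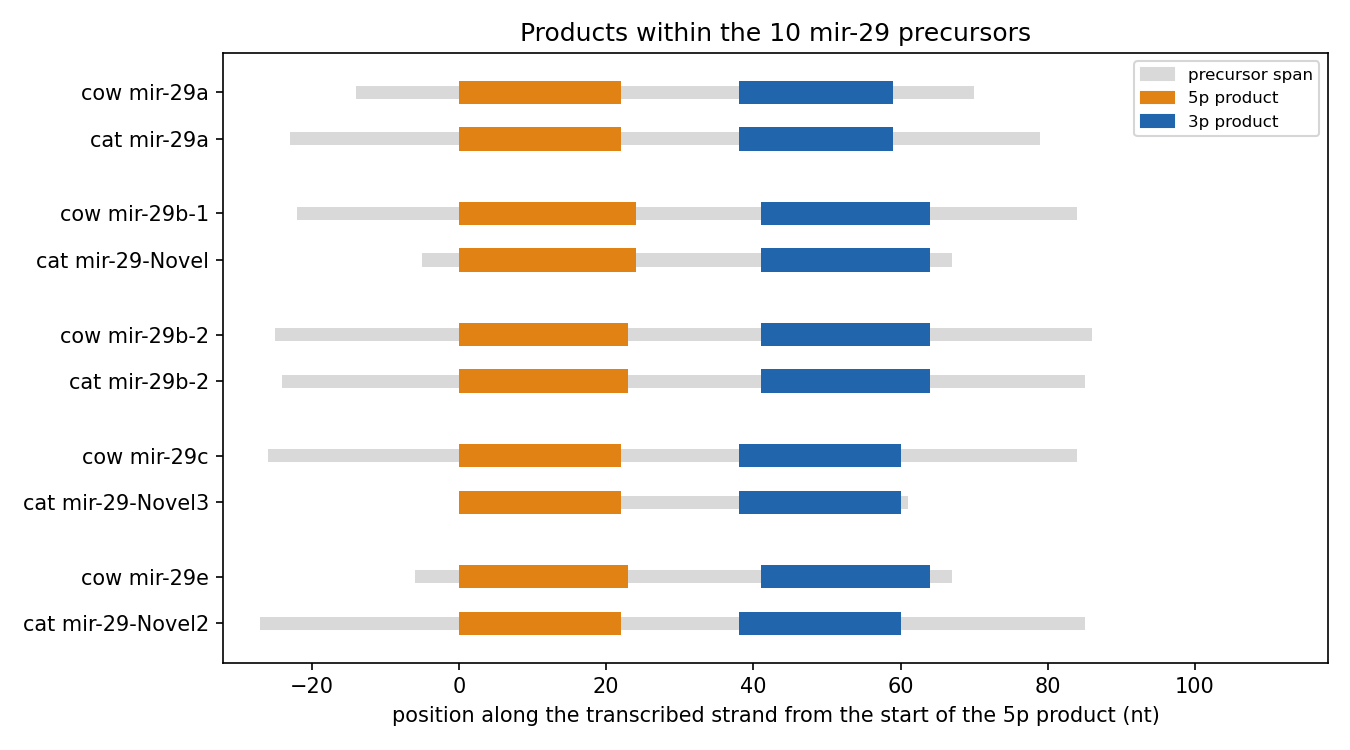
Products within the 10 mir-29 precursors, 1 a row. The x axis gives nt along the transcribed strand from the first base of the 5p product. Grey is the precursor span, orange the 5p product and blue the 3p product. The first 4 row pairs set a cow member above its cat counterpart by name or order. In the last row pair the distant copies are set together by place only. The coloured boxes align in the first 4 row pairs and not in the last, where mir-29e has 18 nt between its products and mir-29-Novel2 has 16 nt, while the grey spans run from 61 to 112 nt.

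The nucleotides between the products, which hold the loop, numbered 16 to 18 at all 10 members. Values in this range occurred at 35.4% of bovine and 32.9% of feline precursors with both arms, whose median was 16 nt in both species. Spacing in mir-181 was close to that of mir-29, with medians of 17 nt in cow and 17.5 nt in cat. In let-7, which is known for a long loop, the median was 29 nt in both species, with values of 23 to 35 nt, so that no let-7 member overlapped mir-29.

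**Figure D3:**
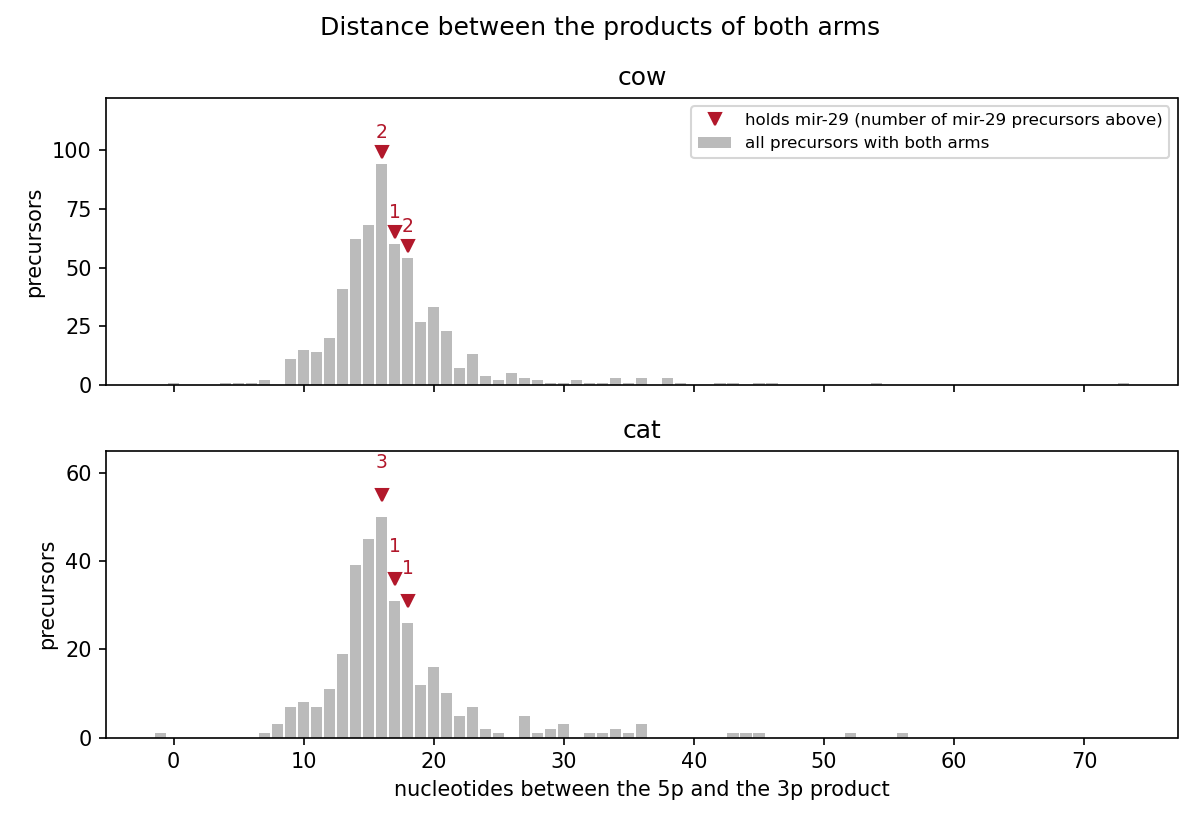
Number of precursors (y axis) by the nucleotides between the 5p and 3p products (x axis), for all precursors with both arms, 587 in cow (top) and 325 in cat (bottom); red triangles mark the bars that hold mir-29 and the red figures count its members. All 10 members sit at 16 to 18 nt, at or just right of the highest bar.

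The predicted hairpins of mir-29 were long, mostly through sequence outside the products. The bovine precursors measured 73 nt (mir-29e), 84 nt (mir-29a), 106 nt (mir-29b-1), 110 nt (mir-29c) and 111 nt (mir-29b-2), with a median of 106 nt against 66 nt over all bovine precursors. The feline ones measured 61 nt (mir-29-Novel3), 72 nt (the partner of mir-29a), 102 nt (mir-29a), 109 nt (mir-29b-2) and 112 nt (mir-29-Novel2), with a median of 102 nt against 65 nt. From the first base of the 5p product to the last of the 3p product, all 10 spanned 59 to 64 nt, with a median of 64 nt in cow and 60 nt in cat, and the median over all precursors with both arms was 60 nt in both species.

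The flanks lay on both sides of the products. In cow, 14 nt preceded the 5p product in mir-29a, 22 nt in mir-29b-1, 25 nt in mir-29b-2 and 26 nt in mir-29c, but 6 nt in mir-29e. In cat, 23 nt preceded it in mir-29a, 24 nt in mir-29b-2 and 27 nt in mir-29-Novel2, but 5 nt in the partner of mir-29a and 0 nt in mir-29-Novel3. At least 10 nt came before the 5p product at 4 of 5 bovine and 3 of 5 feline members, a boundary chosen after these values were seen. It was reached by 14.3% of bovine and 9.85% of feline precursors with both arms. The flank after the 3p product was 2 or 3 nt shorter than the one before it in 9 members and 1 nt longer in mir-29-Novel3.

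Within the hairpin, counterparts with the same product layout differed in length through their flanks. The feline mir-29-Novel3 was 49 nt shorter than bovine mir-29c, and the feline partner of mir-29a was 34 nt shorter than mir-29b-1, whereas feline mir-29a was 18 nt longer than bovine mir-29a and mir-29b-2 differed by 2 nt. None of the 4 matched members had the same precursor length in cow and cat. For the 2 matched by name this stands against 59 of the 141 shared names with both arms (41.8%). The length of a span as listed is the choice of the prediction method. It takes a span either from the best pairing partner of the most abundant product or from separate products. A span of the first kind is lengthened at both ends where it partly overlaps another product. Whether these steps set the differences in length was not tested.

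The surroundings of mir-29 were compared through the other precursors on the same chromosome. The nearest precursor of another family was Novel231 for the bovine mir-29a pair, 290150 nt away, and mir-335 for the feline one, 298297 nt away. For the bovine mir-29b-2 pair it was Novel173, 1370553 nt away, and for the feline pair a suffixed mir-1271 locus, 968053 nt away. The numbered families farther out that follow were chosen after their positions were seen. Downstream of mir-29a came mir-335, then mir-183, mir-96 and mir-182, which are known as a sensory organ cluster, then mir-129-1, in the same order and on the same strands in both species. Between mir-182 and mir-129-1 the cow list also held mir-2422, at 1.78 Mb, where the cat list held Novel77, at 1.69 Mb. The gap from mir-29a to mir-335 was 0.331 Mb in cow and 0.298 Mb in cat, to mir-183 0.991 and 0.933 Mb, and to mir-129-1 2.18 and 2.06 Mb.

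The mir-29b-2 pair lay between mir-205, an epithelial microRNA, upstream and mir-181b-1 with mir-181a-1 downstream, all on the strand opposite to mir-29, in both species. From mir-29b-2 the gap to mir-205 was 1.68 Mb in cow and 1.49 Mb in cat, and the gap to mir-181b-1 was 2.21 Mb in cow and 2.79 Mb in cat. The cat distance was thus shorter on one side, by a ratio of 0.885 to cow, and longer on the other, by 1.26. Around mir-29a the 3 distances had ratios of 0.901 to 0.945.

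**Figure D4:**
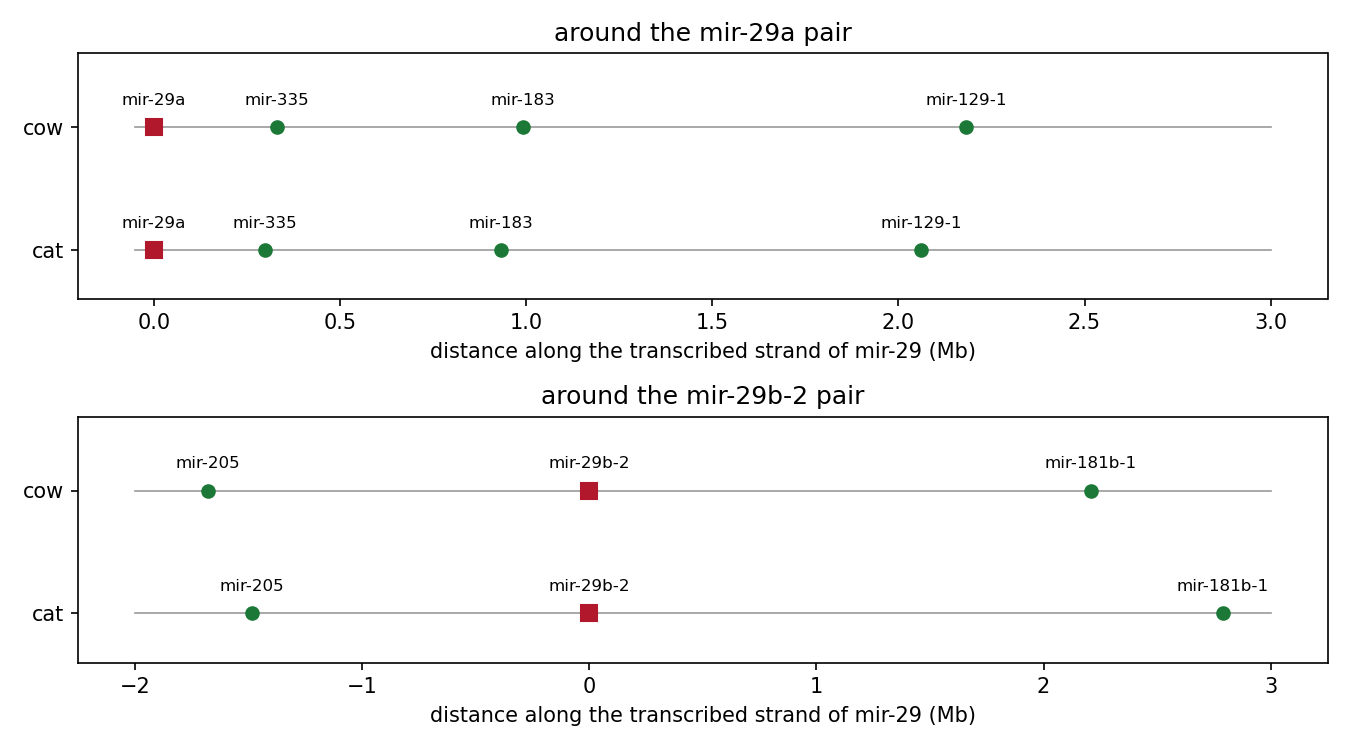
Selected numbered families that flank mir-29 in both species, as distance in Mb along the transcribed strand of mir-29 (x axis) from mir-29a (top) or mir-29b-2 (bottom, red squares), with cow above cat. The order of the green points is the same in both, and the largest shift is that of mir-181b-1, from 2.21 Mb in cow to 2.79 Mb in cat.

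In RefSeq's list for the bovine genome, all 5 predicted members were matched by name. MIR29A and MIR29B-1 lie within the long noncoding RNA gene LOC107131356, with the transcription factor gene KLF14 and the gene MKLN1 as the nearest protein-coding neighbours on either side. MIR29B-2 and MIR29C lie within no other listed gene, between CD34, a surface marker of blood progenitor cells, and CD46, a regulator of complement. MIR29E and MIR29D both lie within the protein-coding gene LOC518224, beyond CD46. Strand was not used for these placements.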

How the data were processed

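Small RNA libraries were sequenced on an Illumina HiSeq, and the submitters' processing notes name cutadapt 1.15, Bowtie 1.2.11 and SAMtools. The authors ran their own predictor, miRWoods, which chooses mature products and hairpin spans with a pair of random forests, over the libraries of each species together, and deposited 1 list of positions for cow and 1 for cat. The genome builds are not given in the sources used here. The deposited values are genomic starts and ends, counted from 1, without counts or scores. Depth and expression were not analysed here, and the positions, given once a species, have no replicate spread, so no test was made.

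With Python 3.11.15, families were read from names, gaps were taken as the nucleotides between spans, and product lengths and offsets were counted along the transcribed strand. Neighbours counted as a pair at 10 kb, the study's distance for clusters. Exact intervals (95%) were computed with scipy 1.17.1. As a check of the reading code only, not of the predictions, 100% of planted pairs and layouts were recovered in 50 simulated lists. Every mir-29 precursor was named, with the nearest precursor of another family per group. Only mir-30, mir-181 and let-7 were compared by counts. The members and these lists were chosen with earlier results of these data known. Gap limits, strand, name suffixes, span definitions, product lengths and offsets were varied. No mature sequences were held in the tables used, so none is printed.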

Additional observations from a re-analysis of the deposited data

How the results depend on the processing

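Of the alternatives, 17 values kept within the main value's range (1.5 times for counts) and 13 moved. The number of paired members was kept at gaps of 1, 5, 50 and 100 kb or on the same strand only. It was 4 of 5 in each species, and 5 of 5 at 100 kb. Both arms with products of 20 to 24 nt were kept too, as were the layouts of matched members taken by name or from 3p products alone. The values that moved follow. Of names without the suffix for unannotated loci, the cat list held 2, by construction. Measured from 5p start to 3p end, the median length was 64 nt in cow and 60 nt in cat, since the flanks are left out. Gaps from start to start, which take in 1 hairpin, were 372 nt (mir-29b-1 to mir-29a) and 564 nt (mir-29b-2 to mir-29c) in cow, and 369 nt (partner to mir-29a) and 597 nt (mir-29b-2 to mir-29-Novel3) in cat. From product to product they were 322, 501, 293 and 509 nt in the same order. The 5p product began at the same offset from the hairpin's 5′ end in 0% of matched members and at the same offset from its centre in 75%. With layouts allowed to differ by 1 nt in each length, a setting chosen after seeing the data, 75.2% of shared names matched in place of 53.2%. No paired analysis was possible because the results come from no test. With 5 members a species and merged libraries, absence of a locus in a list says only that it was not predicted there. Expression and depth were not analysed here.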
